A study of Mus musculus with 6 samples.

Results

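Triacylglycerol is the form in which the liver stores fatty acids and exports them in very-low-density lipoprotein. The genes examined were 10 enzymes that make it or break it down: Gpam, Agpat2, Lpin1, Lpin2, Dgat1, Dgat2 and Mogat1 for synthesis, and Pnpla2, Pnpla3 and Mgll for hydrolysis. They were taken by gene symbol from the 54446 genes listed by the authors, for their place in the pathway and with earlier results of these data known. All 10 were present, and all 10 were among the 16734 genes with enough counts to be tested. The livers came from 3 WT mice and 3 Fmo5-/- mice, 1 RNA-seq library per mouse. All were chow-fed males of 32 weeks on the C57BL/6 background (C57BL/6J in the study's methods), and livers were taken in the morning and frozen. The Fmo5-/- mice carry a disruption of Fmo5, which encodes a flavin-containing monooxygenase, in all cells from conception, so an effect of the liver's own lack of the enzyme and an effect of its lack elsewhere in the body cannot be told apart. The comparison addressed how loss of FMO5 bears on the lipid metabolism of liver in mice that are known for low fat deposition. The labels name no litter, cage or processing batch.

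In the main route, the glycerol 3-phosphate pathway, an acyl group is first added to glycerol 3-phosphate by a mitochondrial acyltransferase (GPAM) to give lysophosphatidate. An acyltransferase of the endoplasmic reticulum (AGPAT2) then makes phosphatidate, lipins (LPIN1 and LPIN2) remove its phosphate to leave diacylglycerol, and DGAT1 or DGAT2 adds the last acyl group. Monoacylglycerol acyltransferase (MOGAT1) is a further source of diacylglycerol. Breakdown runs through adipose triglyceride lipase (ATGL, encoded by Pnpla2), which starts on triacylglycerol, and ends with monoacylglycerol lipase (MGLL), which releases glycerol and the last fatty acid. PNPLA3 is a lipid-droplet relative of ATGL whose expression in liver is known to rise with feeding.

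RefSeq promoters, each from 250 bases before to 50 after a start of transcription in GRCm38.p6, were found for 8 of the 10 genes, with 12 starts between them. Those of Lpin2, Mgll and Mogat1 are shown because these were the genes whose mRNA passed the test described below. Capitals mark an E-box (CACGTG) in Lpin2 and Mgll and a CCAAT box, read as ATTGG, in Mogat1.

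Lpin2, chr17:71183282-71183581, plus strand: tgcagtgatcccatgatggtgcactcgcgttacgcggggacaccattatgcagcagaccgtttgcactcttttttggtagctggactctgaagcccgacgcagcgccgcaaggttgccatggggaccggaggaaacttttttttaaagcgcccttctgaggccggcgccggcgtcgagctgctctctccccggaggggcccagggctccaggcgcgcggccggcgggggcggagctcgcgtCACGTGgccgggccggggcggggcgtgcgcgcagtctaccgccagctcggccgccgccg

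Mgll, chr6:88724162-88724461, plus strand: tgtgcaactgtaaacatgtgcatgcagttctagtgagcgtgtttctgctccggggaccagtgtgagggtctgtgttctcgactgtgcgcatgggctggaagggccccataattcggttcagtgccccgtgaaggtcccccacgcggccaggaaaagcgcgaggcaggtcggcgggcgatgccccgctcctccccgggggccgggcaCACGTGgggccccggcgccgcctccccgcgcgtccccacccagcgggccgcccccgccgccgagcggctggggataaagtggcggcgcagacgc

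Mogat1, chr1:78510810-78511109, plus strand: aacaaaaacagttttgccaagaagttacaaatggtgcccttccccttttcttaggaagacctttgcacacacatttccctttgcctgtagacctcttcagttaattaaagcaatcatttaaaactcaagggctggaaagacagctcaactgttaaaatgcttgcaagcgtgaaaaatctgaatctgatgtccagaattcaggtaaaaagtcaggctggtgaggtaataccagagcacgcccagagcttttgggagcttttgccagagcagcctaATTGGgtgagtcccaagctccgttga

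The E-box, a palindrome bound by CLOCK-BMAL1, USF and ChREBP among others, began 9 bases before the first of 3 starts of Lpin2 and 44 bases before the first of 2 starts of Mgll. Of the 8 genes, no other held it, and 7.15% of all 32851 RefSeq promoters of 300 bases did. CCAAT, the NF-Y box, was searched on both strands and was present in Gpam, Lpin2, Mogat1 and Pnpla3, against 37.4% of all promoters. AGGTCA, a nuclear receptor half-site, was present in Gpam and Lpin1, against 16.3%. Other motifs, also searched on both strands, had no match in these windows: TCACNCCAC, a sterol regulatory element, is in 1.24% of all promoters, TGACNNNGC, the core of the antioxidant response element, is in 12.4%, and TGACGTG, a UPR element, is in 2.01%. None of the motifs overlaps another in the sequences printed. A gene was counted if any of its promoters held the motif, whereas the percentages are shares of single promoters, so they are not in the same unit. These matches describe the sequence only.

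Expression of 3 of the 10 genes, Lpin2, Mogat1 and Mgll, was lower in Fmo5-/- than in WT livers by edgeR's quasi-likelihood test with Benjamini-Hochberg adjustment over all genes tested, and none was higher. The count was 0 without WT mouse 2 or without Fmo5-/- mouse 1, 1 without WT mouse 1, and 0 when the study's limit of 500 on the mean count was set before the fit (edgeR adjusted p = 0.0575 for Lpin2 and 0.0678 for Mgll; Mogat1 is below the limit). Over all genes tested, 1.37% were called in either direction and 0.693% were called lower. DESeq2 called the same 3 and also Gpam and Agpat2, 5 of 10 lower, where it called 4.21% of all its genes lower. In those 5 genes every Fmo5-/- mouse was below every WT mouse, a pattern found in 13.5% of all genes tested. The log2 fold change was negative for 9 of the 10 genes, and their median was -0.43. Without 1 mouse the median ran from -0.64 (without Fmo5-/- mouse 1) to -0.27 (without Fmo5-/- mouse 2), and without WT mouse 3 Pnpla3 was positive as well as Pnpla2. Over all genes tested 49.2% of values were negative and the median was 0.0058.

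**Figure D1:**
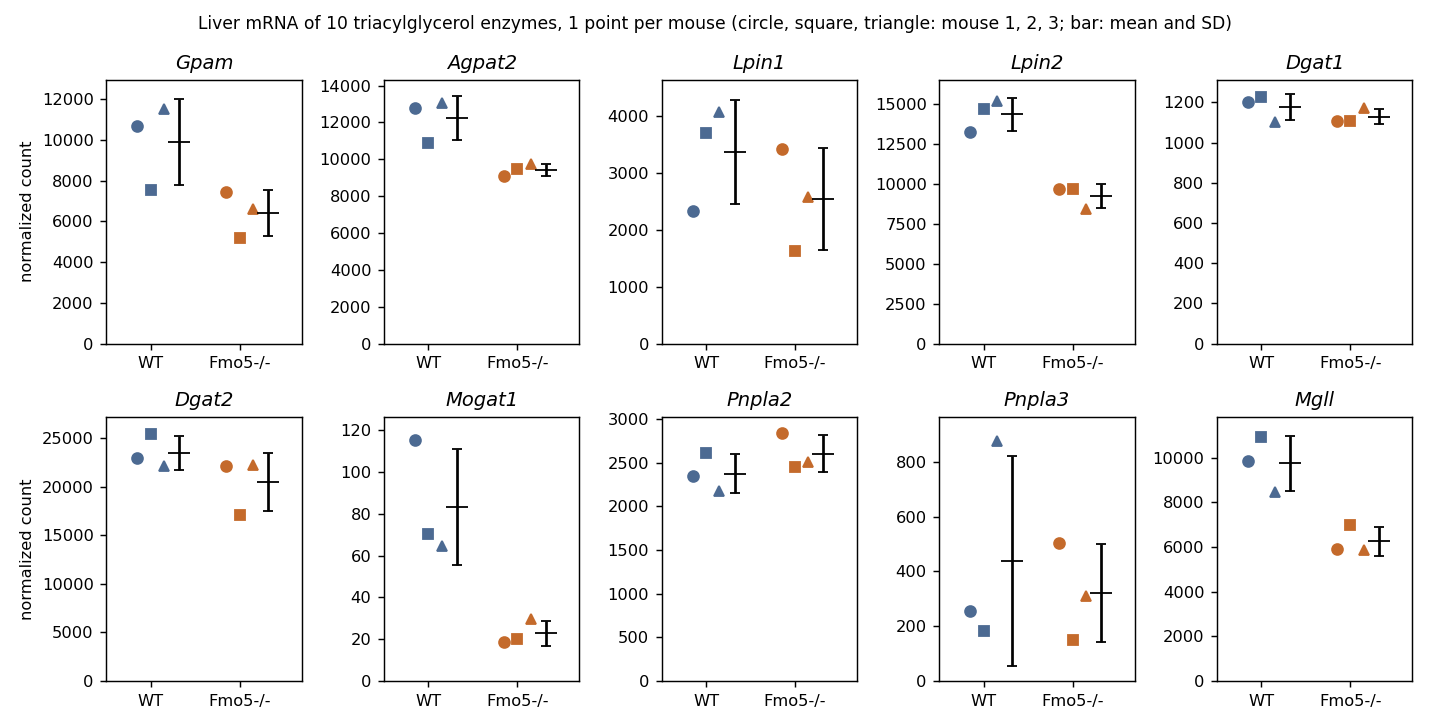
Normalized counts (vertical axes, each starting at 0) of the 10 enzymes in each mouse, with WT in blue and Fmo5-/- in orange; bars give the mean and SD of 3 mice. The genotypes do not overlap for Gpam, Agpat2, Lpin2, Mogat1 and Mgll, and they overlap for the other 5 genes.

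Depth was similar across libraries, at 44886286 to 52338675 counts on genes. Mapping differed with genotype: 11.85% to 13.1% of reads in WT and 10.42% to 11.49% in Fmo5-/- libraries mapped to several places, and 9.72% to 10.15% against 9.1% to 9.2% did not map. Reads in no gene made up 8.63% and 8.28% in Fmo5-/- mice 2 and 3 and 6.86% to 7.02% in the others. The part of these differences in the results was not tested. Fmo5 itself was at 30240 to 39808 normalized counts in WT and at 1071 to 1194 in Fmo5-/- mice, a log2 fold change of -5.00 (edgeR adjusted p = 2.79e-07). Hepatocyte markers were the most abundant list and none of its 7 tested genes was called by edgeR or DESeq2 (1 had an unadjusted p under 0.05). Markers of Kupffer cells, the resident macrophages of liver, were all 8 higher in value in Fmo5-/- mice, 1 of them called by edgeR (Clec4f, log2 fold change 0.70, adjusted p = 0.0275, a call that held in 2 of the 6 fits that left out 1 mouse) and 7 by DESeq2, and their summed normalized counts were 10400 to 12373 in WT and 16378 to 29244 in Fmo5-/- livers. All 6 lymphocyte and neutrophil markers were also higher in value, with none called by edgeR (4 had an unadjusted p under 0.05), 2 called by DESeq2 and sums of 168 to 293 against 310 to 712. The part of these cells in the results below was not tested, and in bulk tissue fewer cells of a type and less RNA per cell cannot be told apart.

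The first step of synthesis was represented by Gpam (chr19:55067268-55127238, GRCm38). Its normalized counts were 10673, 7518 and 11487 in the WT mice and 7418, 5195 and 6599 in the Fmo5-/- mice. The lowest WT mouse was only just above the highest Fmo5-/- mouse. Mean abundance was 9893 ± 2097 in WT and 6404 ± 1124 in Fmo5-/- (SD, n = 3 mice each), a log2 fold change of -0.63 with a standard error of 0.18 and a 95% interval of -1.05 to -0.21. The call depended on the tool, with an adjusted p of 0.108 by edgeR and 0.0067 by DESeq2. No fit without 1 of the mice brought the edgeR value under 0.05.

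Agpat2 (chr2:26593057-26604417), of the next step, was at 12786, 10874 and 13039 in WT and at 9099, 9460 and 9737 in Fmo5-/- mice. The Fmo5-/- mice were close together, all below WT mouse 2, the lowest of its group. The log2 fold change was -0.38 ± 0.095 (SE), or 22.9% lower, with a 95% interval of -0.59 to -0.16. As for Gpam, the adjusted p was above the threshold by edgeR, at 0.0765, and below it by DESeq2, at 0.0068. A stretch of 64 exon bases is shared with Egfl7 on the opposite strand, and in an unstranded library reads there cannot be assigned to either gene.

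The lipins, which dephosphorylate phosphatidate, differed in how far mice of 1 genotype were spread. Lpin2 (chr17:71182560-71249817), the more abundant of the pair, was at 13204, 14660 and 15173 normalized counts in WT mice. In Fmo5-/- mice it was at 9663, 9656 and 8396. The groups were well apart, with a mean of 14346 ± 1022 in WT and 9238 ± 730 in Fmo5-/- (SD). Lpin2 expression fell by 35.6%, a log2 fold change of -0.63 ± 0.097 (SE; 95% interval -0.85 to -0.42; edgeR adjusted p = 0.0243). It had the lowest adjusted p of the 10 genes, and the call held in 4 of the 6 fits that left out 1 mouse. The adjusted p was 0.0624 without WT mouse 2 and 0.0853 without Fmo5-/- mouse 1, although the log2 fold change stayed between -0.69 and -0.57.

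Lpin1 (chr12:16535669-16610966), whose product is also a transcriptional coactivator and is known to be raised in liver by fasting, was at 2335, 3701 and 4078 in WT and at 3421, 1621 and 2578 in Fmo5-/- mice. The groups overlapped: Fmo5-/- mouse 1 was above WT mouse 1. The log2 fold change was -0.41 ± 0.33 (SE), with an interval of -1.23 to 0.42 and an edgeR adjusted p of 0.538. It ran from -0.68 without Fmo5-/- mouse 1 to -0.17 without Fmo5-/- mouse 2. Its standard error was far larger than that of Lpin2.

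The final step was represented by Dgat2 (chr7:99153658-99182719) and Dgat1 (chr15:76502015-76511953). Dgat2, which acts mainly on newly made fatty acids at lipid droplets, was at 22909, 25439 and 22090 in WT and at 22128, 17027 and 22232 in Fmo5-/- mice. Only Fmo5-/- mouse 2 was below the WT range. The log2 fold change was -0.20 ± 0.12 (SE), with an interval of -0.47 to 0.08 and an edgeR adjusted p of 0.382, and it was -0.08 without that mouse. Dgat1, an enzyme of the endoplasmic reticulum, was the steadiest gene of the 10, at 1203, 1226 and 1103 in WT and at 1109, 1106 and 1174 in Fmo5-/- mice. Its log2 fold change was -0.06 ± 0.079 (SE; edgeR adjusted p = 0.707). The interval of -0.24 to 0.12 bounds any difference in Dgat1 mRNA at this depth, and a difference of the size seen for Lpin2 lies outside it.

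Mogat1 (chr1:78510991-78538173) had the largest fold change of the 10 genes and the lowest level. It was at 115, 70.3 and 64.4 normalized counts in WT and at 18.6, 20.2 and 29.5 in Fmo5-/- mice, from raw counts of 109, 63 and 63 against 20, 22 and 30. Every WT mouse was above every Fmo5-/- mouse, and WT mouse 1 stood above the others of its group. Mean abundance was 83.4 ± 27.9 in WT and 22.8 ± 5.85 in Fmo5-/- (SD). Mogat1 expression fell by 72.7%, with a log2 fold change of -1.87 ± 0.31 (SE; 95% interval -2.57 to -1.17; edgeR adjusted p = 0.0324). The call held in 2 of the 6 fits without 1 mouse. Without WT mouse 1 the log2 fold change was -1.56 and the adjusted p 0.0962, and the call was also lost without WT mouse 2, Fmo5-/- mouse 1 or Fmo5-/- mouse 2 (adjusted p = 0.0514, 0.121 and 0.081).

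Some limits apply to Mogat1. Its mean of 53.1 over all mice was below the 500 normalized counts the study set as a minimum. Of its exon bases 12.8% are shared with BC035947 on the opposite strand, and the single-strand counts summed to 109.5% to 136.4% of the unstranded count, so reads of the shared stretch were set aside as ambiguous. Of the adipocyte markers, Adiponectin (Adipoq) was at 40.2, 6.7 and 1.02 in WT and at 3.73, 7.34 and 0 in Fmo5-/- mice. Plin1 was at 45.5, 7.81 and 0 against 4.66, 2.75 and 1.96. Both were highest in WT mouse 1, as Mogat1 was, but ranked the other mice differently from Mogat1. Leptin (Lep) was at 8.47, 1.12 and 0 in WT and at 0.93, 0 and 0 in Fmo5-/- mice. Cfd, also an adipocyte product, was at 953, 553 and 452 against 41.0, 129 and 40.2 (log2 fold change -3.21, edgeR adjusted p = 0.0633). Fabp4, which endothelial cells and macrophages also express, had the opposite sign, at 522, 369 and 314 in WT and 551, 1394 and 360 in Fmo5-/- mice (log2 fold change 0.94, edgeR adjusted p = 0.418), and Lipe was at 612 to 658 and 569 to 676. Fabp4 and Lipe made up most of the summed counts in every mouse of both genotypes. The 8 adipocyte markers summed to 1402 to 2207 in WT and to 973 to 2154 in Fmo5-/- livers. Of these 8, 3 were abundant enough to test and none was called by edgeR (1, Cfd, had an unadjusted p under 0.05 and was called by DESeq2). The part of adipose tissue in the Mogat1 result was not tested beyond these values.

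**Figure D2:**
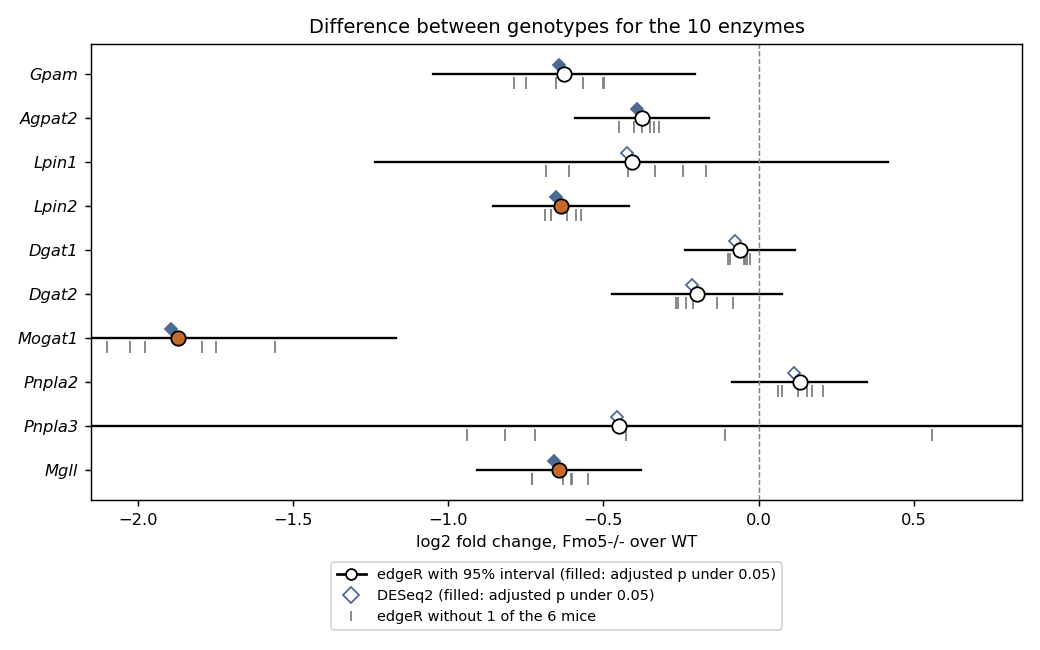
Log2 fold change, Fmo5-/- over WT (horizontal axis), of the 10 enzymes: circles and lines are edgeR estimates with 95% intervals, diamonds are DESeq2 estimates, and ticks are edgeR estimates without 1 of the 6 mice; filled symbols have an adjusted p under 0.05. Mogat1 lies farthest from 0, at -1.87, Lpin2, Mgll and Gpam lie together near -0.63, and the ticks of Pnpla3 lie on both sides of 0. The line of Mogat1 is cut at the left edge of the plot and that of Pnpla3 at both edges. Their full intervals are -2.57 to -1.17 and -2.51 to 1.61.

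Of the hydrolases, Mgll (chr6:88724412-88828360) was lower in Fmo5-/- mice. It was at 9837, 10947 and 8462 in WT and at 5907, 6983 and 5859 in Fmo5-/- mice, with no overlap. Mean abundance was 9749 ± 1245 in WT and 6250 ± 636 in Fmo5-/- (SD). Mgll expression fell by 35.9%, a log2 fold change of -0.64 ± 0.12 (SE; 95% interval -0.91 to -0.38; edgeR adjusted p = 0.043). The call held in 3 of the 6 fits without 1 mouse and was lost without WT mouse 1, WT mouse 2 or Fmo5-/- mouse 1 (adjusted p = 0.125, 0.0971 and 0.13). A stretch of 167 exon bases is shared with the antisense gene Gm26588. MGLL also degrades the endocannabinoid 2-arachidonoylglycerol.

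Pnpla2 (chr7:141455198-141460743), which encodes ATGL, was the only one of the 10 genes with a positive value. It was at 2346, 2611 and 2176 in WT and at 2847, 2456 and 2512 in Fmo5-/- mice. The groups overlapped, and the log2 fold change was 0.13 ± 0.096 (SE), with an interval of -0.08 to 0.35 (edgeR adjusted p = 0.465). The first lipase of the breakdown pathway thus gave no detectable difference where the last, Mgll, did. That contrast rests on intervals that do not overlap, and the difference between the genes was not itself tested.

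Pnpla3 (chr15:84167837-84187236) varied most. It was at 255, 182 and 877 in WT and at 505, 150 and 309 in Fmo5-/- mice. The spread among mice of 1 genotype was wider than any difference between genotypes, with a coefficient of variation of 87.2% in WT and 55.4% in Fmo5-/-. The log2 fold change was -0.45 ± 0.79 (SE), with an interval of -2.51 to 1.61 (edgeR adjusted p = 0.797), and it turned to 0.56 without WT mouse 3. Pnpla3 shares 105 exon bases with Gm49513 on the same strand. Its direction cannot be given from these 6 mice.

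Levels of different genes were compared per exon length, as TPM, the counts per base of exon brought to a common total in each library. In WT livers Dgat2 was highest, with a mean of 358 TPM, followed by Agpat2 at 269, Mgll at 90.4, Gpam at 69.5, Lpin2 at 55.1, Pnpla2 at 37.1, Dgat1 at 18.1, Lpin1 at 16.4, Pnpla3 at 13.1 and Mogat1 at 2.51. Over the 3 WT mice, the ranges of Mgll and Gpam overlapped, as did those of Gpam and Lpin2, of Dgat1 and Lpin1, and of Lpin1 and Pnpla3. The other neighbours in this order did not overlap. In Fmo5-/- livers Pnpla2, with a mean of 44.1 TPM and a range of 41.8 to 47.6, was placed above Lpin2, with a mean of 38.6 and a range of 34.5 to 41.6, which is the reverse of their order in WT. Mogat1 was at 0.604 to 0.95 TPM in Fmo5-/- and at 1.89 to 3.46 TPM in WT mice. The monoacylglycerol acyltransferase was thus a minor transcript of these livers in either genotype.

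**Figure D3:**
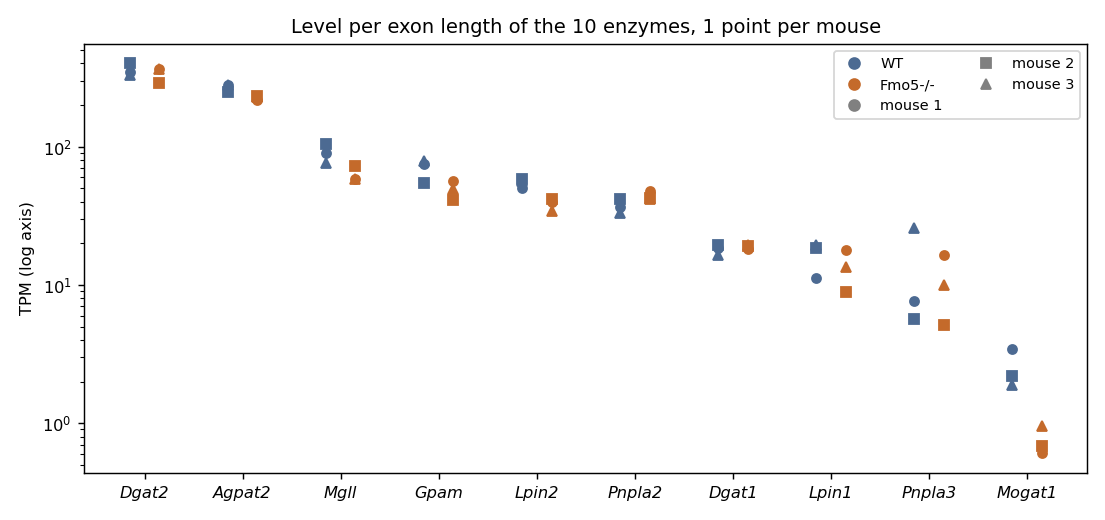
Level per exon length, in TPM on a log axis, of the 10 enzymes in each mouse (1 point per mouse; shapes give the mouse), ordered by the WT mean. Dgat2 and Agpat2 are above 200 TPM in every mouse and Mogat1 is below 4.

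The balance between enzymes of 1 step was compared within each library, as the log2 ratio of raw counts, which needs no scaling between libraries. Dgat2 exceeded Dgat1 in every mouse, with a TPM ratio of 19.7 in WT and 17.8 in Fmo5-/-. The log2 ratio was 4.32 ± 0.062 in WT and 4.17 ± 0.20 in Fmo5-/- (SD, n = 3), a difference of -0.15 (exact permutation test, two-sided, p = 0.2), which was -0.035 without Fmo5-/- mouse 2. Lpin2 exceeded Lpin1 in every mouse, and the log2 ratio of Lpin1 to Lpin2 was -2.13 ± 0.33 in WT and -1.93 ± 0.57 in Fmo5-/-, a difference of 0.20 (exact p = 0.6). For Pnpla2 over Pnpla3 the log2 ratio was 2.78 ± 1.32 in WT and 3.18 ± 0.78 in Fmo5-/-, a difference of 0.40 (exact p = 0.7). Over these 3 pairs the adjusted p values were 0.6, 0.7 and 0.7. With 3 mice against 3 this test cannot go below 0.1.

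Mice of 1 genotype differed from each other in ways that ran through several of the 10 genes. Fmo5-/- mouse 2 was the lowest of its group for 6 genes, Gpam, Lpin1, Dgat1, Dgat2, Pnpla2 and Pnpla3. The same mouse was lowest for the summed counts of 10 genes raised in liver by feeding, at 341544 against 774170 and 538087 in the other Fmo5-/- mice. WT mouse 2 was the lowest of its group for Gpam, Agpat2 and Pnpla3 and also for the feeding list, at 624514 against 780492 and 813218. It stood apart in clock genes as well: Dbp, a transcript with a strong daily rhythm, was at 1772 against 324 to 818 in the other mice, and Arntl was at 497 against 948 to 1347. WT mouse 3 was highest of its group for 5 of the genes and lowest for the other 5. Pnpla5, a neighbour and relative of Pnpla3, ranked the mice as Pnpla3 did within each genotype, with 12.7, 5.58 and 151 in WT and 60.6, 24.8 and 35.3 in Fmo5-/-. The part of feeding state and time of collection in the differences between genotypes was not tested.

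**Figure D4:**
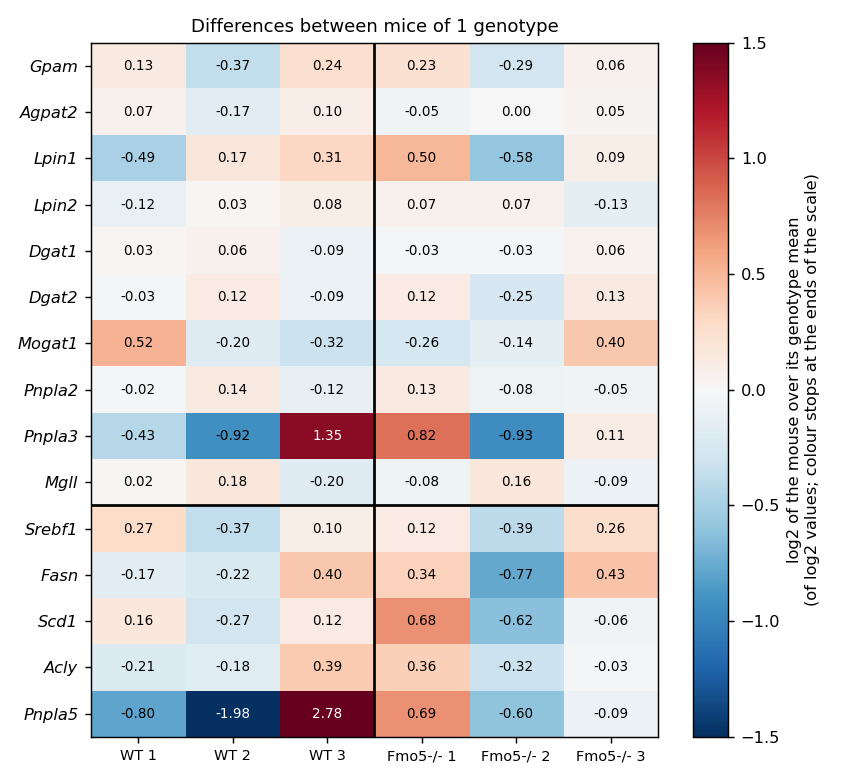
Difference of each mouse's log2 normalized count from the mean of the log2 values of its own genotype (colour and printed value; columns are mice, rows are genes) for the 10 enzymes and, below the line, 5 genes of lipogenesis and lipid droplets for reference. Pnpla3 has the widest spread of the 10, from -0.92 to 1.35 among WT mice, while Lpin2, Dgat1, Agpat2 and Pnpla2 stay within 0.17 of their genotype mean.

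Genes around the 10 enzymes were taken from lists of the pathway. For the supply of glycerol 3-phosphate, 5 of 7 genes could be tested. Gpd2, the mitochondrial glycerol 3-phosphate dehydrogenase, fell, with a log2 fold change of -0.49 ± 0.089 (SE; edgeR adjusted p = 0.043) and counts of 2057 to 2150 in WT against 1386 to 1660 in Fmo5-/- mice. This call held in 1 of the 6 fits that left out 1 mouse, the one without Fmo5-/- mouse 3, with an adjusted p of up to 0.123 in the others. Gpd1, its cytosolic counterpart, and Gk, glycerol kinase, were called lower by DESeq2 and not by edgeR (log2 fold changes -0.61 and -0.49, edgeR adjusted p = 0.0554 and 0.0697). Gpd1l was at -0.24, and Aqp9, the glycerol channel of hepatocytes, was at 0.06. Neither was called by edgeR or DESeq2. The other glycerol channels, Aqp3 and Aqp7, were at no more than 2.79 normalized counts in any mouse and were not tested. The median log2 fold change of the list was -0.49.

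Other acyltransferases and phosphatases of synthesis formed the next list, and the lists were not tested against each other. None of the 11 tested was called by edgeR (3 had an unadjusted p under 0.05), and DESeq2 called 1, Lpgat1, which can acylate monoacylglycerol, with a log2 fold change of -0.46 (edgeR adjusted p = 0.0779). The median was -0.12. The isozymes of GPAM and AGPAT2 had values of both signs and none was called by either tool: 0.49 for Gpat2, -0.64 for Gpat3 and -0.23 for Gpat4, and 0.30 for Agpat1, -0.21 for Agpat3, 0.66 for Agpat4 and -0.12 for Agpat5 (edgeR adjusted p from 0.155 to 0.577). Lpin3, the remaining lipin, was at 0.35 (adjusted p = 0.187). Agpat4 and Lpin3 were higher in every Fmo5-/- mouse than in every WT mouse, and Lpgat1 and Tmem68 were lower in every one. The lower pattern was found in 13.5% of all genes tested, and the share with the higher pattern was not counted.

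Among the other hydrolases of acylglycerols, 1 of 13 was called lower by edgeR. This was Aadac, a microsomal esterase, at 24247 to 27375 in WT and 12601 to 17011 in Fmo5-/- mice (log2 fold change -0.79 ± 0.12 SE, adjusted p = 0.0239). The call held in 3 of the 6 fits without 1 mouse and was lost without WT mouse 1, WT mouse 3 or Fmo5-/- mouse 1 (adjusted p up to 0.0959). Aadac is on chromosome 3, as Fmo5 is, and the part of this linkage in its value was not tested. DESeq2 called 5 lower: Aadac, the lysosomal acid lipase Lipa, Abhd6, which like MGLL hydrolyses monoacylglycerol, the carboxylesterase Ces1d and Pnpla8. Their log2 fold changes by edgeR were -0.79, -0.37, -0.39, -0.47 and -0.40. Hormone-sensitive lipase (Lipe) was at -0.03 (edgeR adjusted p = 0.895). The median over the 13 was -0.32, and it was -0.12 without WT mouse 3.

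Regulators of ATGL at the lipid droplet were the list in which all tested genes, 7 of 7, had negative values, with a median of -0.45. Cidec, a promoter of lipid droplet fusion, fell from 299 to 492 in WT to 138 to 181 in Fmo5-/- mice, a log2 fold change of -1.31 ± 0.20 (SE; edgeR adjusted p = 0.0228). The call held in 3 of the 6 fits without 1 mouse and was lost without WT mouse 1, WT mouse 2 or Fmo5-/- mouse 1 (adjusted p up to 0.101). It is also an adipocyte gene, and the adipocyte marker values given for Mogat1 apply to it. DESeq2 called 4 more: G0s2, an inhibitor of ATGL (log2 fold change -0.86, edgeR adjusted p = 0.133), the droplet coat proteins Plin2 (-0.45) and Plin5 (-0.50), and Cideb (-0.31). Abhd5, the coactivator of ATGL, was at -0.28 and Hilpda, another inhibitor, at -0.13, and neither was called by edgeR or DESeq2. Leaving out 1 mouse turned Hilpda to at most 0.12 and left the other 6 negative.

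The next list held genes for the use of phosphatidate and diacylglycerol and for phospholipid synthesis, and only some of their enzymes share a substrate with DGAT. None of the 11 tested was called by edgeR (4 had an unadjusted p under 0.05), and DESeq2 called 1, the choline phosphotransferase Chpt1, lower (log2 fold change -0.75, edgeR adjusted p = 0.0545). The median was -0.02. Of 14 transcriptional regulators none was called by edgeR or DESeq2 (2 had an unadjusted p under 0.05), and the median was -0.04. Srebf1 was at -0.06 and Mlxipl, which encodes ChREBP, at -0.07. Pparg was at 635 to 965 normalized counts in WT and 583 to 662 in Fmo5-/- mice, a log2 fold change of -0.46 (edgeR adjusted p = 0.135). Nr1h2, which encodes the oxysterol receptor LXR beta, had a positive value with no overlap, at 2021 to 2342 in WT and 2492 to 2801 in Fmo5-/- mice (log2 fold change 0.27, edgeR adjusted p = 0.124). How common such a lack of overlap is among all genes in the higher direction was not counted. In none of the 6 pathway lists was a gene called higher by edgeR or DESeq2.

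**Figure D5:**
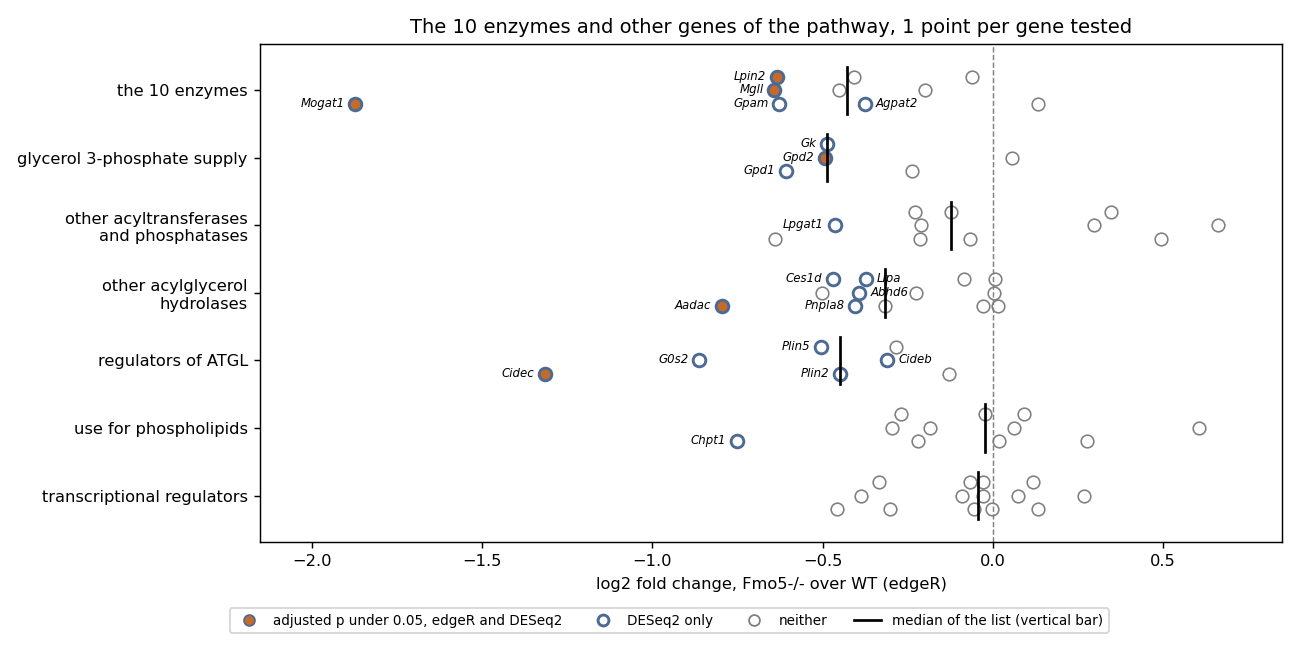
Log2 fold change, Fmo5-/- over WT (horizontal axis), of each tested gene of the 10 enzymes and of 6 lists of pathway genes (rows), with a vertical bar at the median of each list. Genes called by edgeR and DESeq2 (filled) or by DESeq2 only (thick ring) all lie to the left of 0, no transcriptional regulator is among them, and the medians run from -0.49 for glycerol 3-phosphate supply to -0.02 for phospholipid synthesis.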

How the data were processed

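RNA was measured in 1 liver library per mouse, 3 WT and 3 Fmo5-/-, by single-end sequencing. The authors aligned reads with STAR 2.6.0c, named in the submitters' processing notes, and deposited its raw counts per gene (unstranded, and on each strand) together with a table of counts divided by DESeq2 1.22.2 size factors, a signal on a linear scale. Raw counts over deposited signal gave 1 constant per library (largest relative deviation 5.49e-06). The table's columns of the authors' comparison (fold change, standard error, statistic, p and adjusted p) were not used. Between 66.2% and 69.2% of reads were counted on genes, 10.4% to 13.1% mapped to several places, and these and other rows that name no gene were left out of library sizes. Single-strand counts were near equal, at 49.9% to 50.1%, so the unstranded counts were used; genes that overlap on opposite strands cannot be told apart.

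Unstranded counts were tested with edgeR 4.0.16 in R 4.3.3: filterByExpr with a minimum count of 10, TMM scaling, a robust quasi-likelihood fit without covariates, and Benjamini-Hochberg adjustment over 16734 genes, with a gene called at an adjusted p under 0.05. The script was tested on simulated data. Normalized counts are counts over effective library size, at the mean library. The alternatives were DESeq2 1.42.0, RLE scaling, TMM without the 20 most abundant genes, no filter, a limit of 500 on mean count, counts of 1 strand, and leaving out each mouse. TPM used exon-union lengths of GENCODE mouse annotation on GRCm38. The annotation release behind the authors' counts is not given in the sources used here. Isozyme ratios were compared by exact permutation with scipy 1.17.1.

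The 10 members and all lists were chosen with earlier results of these data known. Named genes were Fmo5, the members, list genes called by edgeR or DESeq2, and any gene of a list with at most 8 tested genes; the other genes given with values were chosen after their values were seen.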

Additional observations from a re-analysis of the deposited data

How the results depend on the processing

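Of 118 recomputed fold changes of the 10 genes, 101 kept their direction and side of the threshold, 4 passed it where they had not, 11 no longer did, and 2 reversed; the cause was not tested. RLE scaling, TMM without the most abundant genes and counts of 1 strand changed no call among the 10. All genes called numbered 229, against 1395 by DESeq2, 1989 with no filter on low counts and 53 with the limit of 500. Members called were 3, against 5 by DESeq2, 5 with no filter and 0 with the limit. Gpam passed the threshold at -0.64 by DESeq2 and -0.64 with no filter, as did Agpat2 at -0.39 and -0.39. With the limit of 500, Lpin2 was at -0.57 (edgeR adjusted p = 0.0575), Mgll at -0.57 (0.0678) and Dgat1 turned to 0.0053; Mogat1 and Pnpla3 are below it and have no value there.

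Leaving out 1 mouse at a time, the calls over all genes ranged from 31 (without Fmo5-/- mouse 1) to 763 (without Fmo5-/- mouse 3), and the members called from 0 (without WT mouse 2 or Fmo5-/- mouse 1) to 3. The log2 fold change ranged from -0.69 to -0.57 for Lpin2, -2.10 to -1.56 for Mogat1, -0.73 to -0.55 for Mgll and -0.94 to 0.56 for Pnpla3, the last value without WT mouse 3. The median of the members ranged from -0.64 (without Fmo5-/- mouse 1) to -0.27 (without Fmo5-/- mouse 2). That of other hydrolases ranged from -0.39 to -0.12 (-0.21 with the limit of 500), that of other acyltransferases from -0.18 to -0.010 and that of phospholipid synthesis from -0.07 to 0.02. The log2 ratio difference ranged from -0.22 to -0.035 for Dgat2 over Dgat1, from -0.012 (without Fmo5-/- mouse 1) to 0.53 for Lpin1 over Lpin2, and from -0.34 (without WT mouse 3) to 0.93 for Pnpla2 over Pnpla3, where it was -0.026 without Fmo5-/- mouse 2.

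Calls in the pathway lists, by DESeq2, with no filter and with the limit of 500, were 3, 3 and 0 for glycerol 3-phosphate supply, 5, 4 and 0 for regulators of ATGL, 5, 6 and 1 for other hydrolases, 1, 1 and 0 for other acyltransferases and 1, 2 and 0 for phospholipid synthesis (1 with counts of 1 strand). Transcriptional regulators had 4 with no filter and 0 otherwise. Without 1 mouse the ranges were 0 to 2 for supply and for regulators of ATGL, and 0 to 1 for other hydrolases, phospholipid synthesis and transcriptional regulators. No paired analysis was possible because each library came from a different mouse and the labels pair no WT mouse with an Fmo5-/- mouse. Mogat1 had the fewest raw counts of the members, 20 to 30 in Fmo5-/- mice; counting error and the spread between mice were not separated.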

Other observations

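Genes whose liver expression follows feeding and fasting were also read, since several of the 10 enzymes are known to follow it. All 10 genes of the feeding list had negative log2 fold changes, with a median of -0.45, although Srebf1, Acly and Pklr turned positive (up to 0.11, 0.08 and 0.05) on leaving out 1 mouse. None was called by edgeR (3 had an unadjusted p under 0.05), and DESeq2 called 3 lower: Elovl6, a fatty acid elongase (-0.67), Thrsp (-0.59) and Me1, cytosolic malic enzyme (-1.30). Their summed normalized counts were 624514 to 813218 in WT and 341544 to 774170 in Fmo5-/- mice. Of the fasting list, 1 of 10 genes was called lower by edgeR, the hepatokine Fgf21, at 102 to 157 in WT and 14.7 to 42.8 in Fmo5-/- mice (log2 fold change -1.89, adjusted p = 0.0494); the call held in 2 of the 6 fits without 1 mouse. DESeq2 also called Fgf21 lower. Of 12 clock genes none was called by edgeR or DESeq2 (1 had an unadjusted p under 0.05).

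Lists of other cell types held no called gene by edgeR or DESeq2 for endothelial cells (6 tested, 1 with an unadjusted p under 0.05), stellate cells and fibroblasts (7 tested, 1) and cholangiocytes (5 tested, 0). Of exocrine pancreas markers, Prss1 and Cpa1 were at 0 in every library, and the 6 markers summed to no more than 27.0 normalized counts in any mouse.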
